A study of Mus musculus with 4 samples.

Results

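The genes of the Runx and early osteoblast programme were read on 4 Affymetrix whole-genome mouse expression arrays of embryos in which *Hand2* is overexpressed in the neural crest and of their wild-type littermates. The genes were fixed by name as *Runx1*, *Runx2*, *Runx3*, *Cbfb*, *Sp7*, *Alpl*, *Spp1* and *Ibsp*, and all probe sets annotated to exactly 1 of these symbols were taken. This gave 13 of 45037 probe sets, for 6 of the 8 genes: 6 for *Runx1*, 2 each for *Runx3* and *Ibsp*, and 1 each for *Cbfb*, *Sp7* and *Alpl*. *Runx2* and *Spp1* have no probe set of their own in the annotation used and were not analysed here.

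The Hand2NC embryos (Hand2 CAT/+; Wnt1-Cre) carry a transgene of *Hand2* behind the CAG promoter and a floxed CAT cassette, which Wnt1-Cre removes in the neural crest lineage. The background was mixed C57BL/6J x ICR in both genotypes. By the sample labels, Hand2NC and wild-type embryos were taken as whole bodies at E11.5 and as heads at E12.5. A figure legend of the study instead names heads for its E11.5 arrays, and the labels are followed here. RNA was pooled before hybridisation, so 1 array stands for each genotype and stage, and no difference between 2 arrays has a replicate check. Wnt1-Cre is active in the neural crest lineage, whose cells are a part of a head and a smaller part of a whole embryo. In such bulk RNA, fewer cells of a type and less RNA per cell cannot be told apart.

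The Runx proteins bind DNA through a shared Runt domain and gain affinity by pairing with the non-DNA-binding partner encoded by *Cbfb*. *Runx1* is known for the origin of blood stem cells, *Runx2* for commitment to the osteoblast lineage, and *Runx3* for proprioceptive sensory neurons. In most jaw bone, which is formed directly from neural crest mesenchyme without a cartilage model, *Runx2* lies upstream of *Sp7*, the zinc finger factor osterix. *Alpl* (the tissue-nonspecific alkaline phosphatase of early osteoblasts), *Spp1* (osteopontin) and *Ibsp* (bone sialoprotein) encode an enzyme and 2 matrix proteins of bone formation.

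The arrays carried the labelled states of *Hand2* and tissue. Of the 3 *Hand2* probe sets, 1422221_at had a signal of 314 in Hand2NC and 67.1 in wild-type whole embryos, and of 706 in Hand2NC and 33.4 in wild-type heads. Another, 1436041_at, had log2 ratios of Hand2NC to wild-type of 0.04 at E11.5 and 0.50 at E12.5, and the third was dim throughout, below every array median. All 8 heart muscle and all 8 liver genes of the marker lists lay above the signal filter defined below at E11.5, against 4 and 2 of them at E12.5. Of the forebrain and eye genes above the filter 3 of 5 in Hand2NC and 3 of 6 in wild-type were at least 2-fold higher in heads, among them *Six3* (log2 ratios of 1.66 and 2.11). In wild-type *Hesx1* of this list was at least 2-fold lower (-1.21), and over all genes above the filter 5.11% in Hand2NC and 7.07% in wild-type differed by that much either way. The E12.5 pools differed in Y-linked signal: 4 probe sets of *Eif2s3y*, *Kdm5d* and *Uty*, had signals between 1.999 and 30.03 on the Hand2NC head array and between 111 and 956 on the others. The sex of the pooled embryos and the genotype thus cannot be told apart at E12.5. These 4 probe sets were chosen after their values were seen.

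All but 1 of the 13 probe sets for Runx and osteoblast genes were dim. Signals are MAS5 values, each array scaled to a trimmed mean of 500, on which the array medians lay between 97.2 and 106. Only the *Cbfb* probe set reached the median on all 4 arrays, at percentiles 97.6 to 97.8. In all, 9 probe sets fell short of the median on each array, and the highest signal outside *Cbfb* was 146, at percentile 56.2. A probe set was counted as changed when it differed at least 2-fold and, on the brighter of the 2 arrays compared, reached that array's median. Beside each ratio stands the local spread, the robust standard deviation of the log2 ratio over the 500 probe sets nearest in mean signal on the same 2 arrays, which holds measurement error and real change together.

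**Figure D1:**
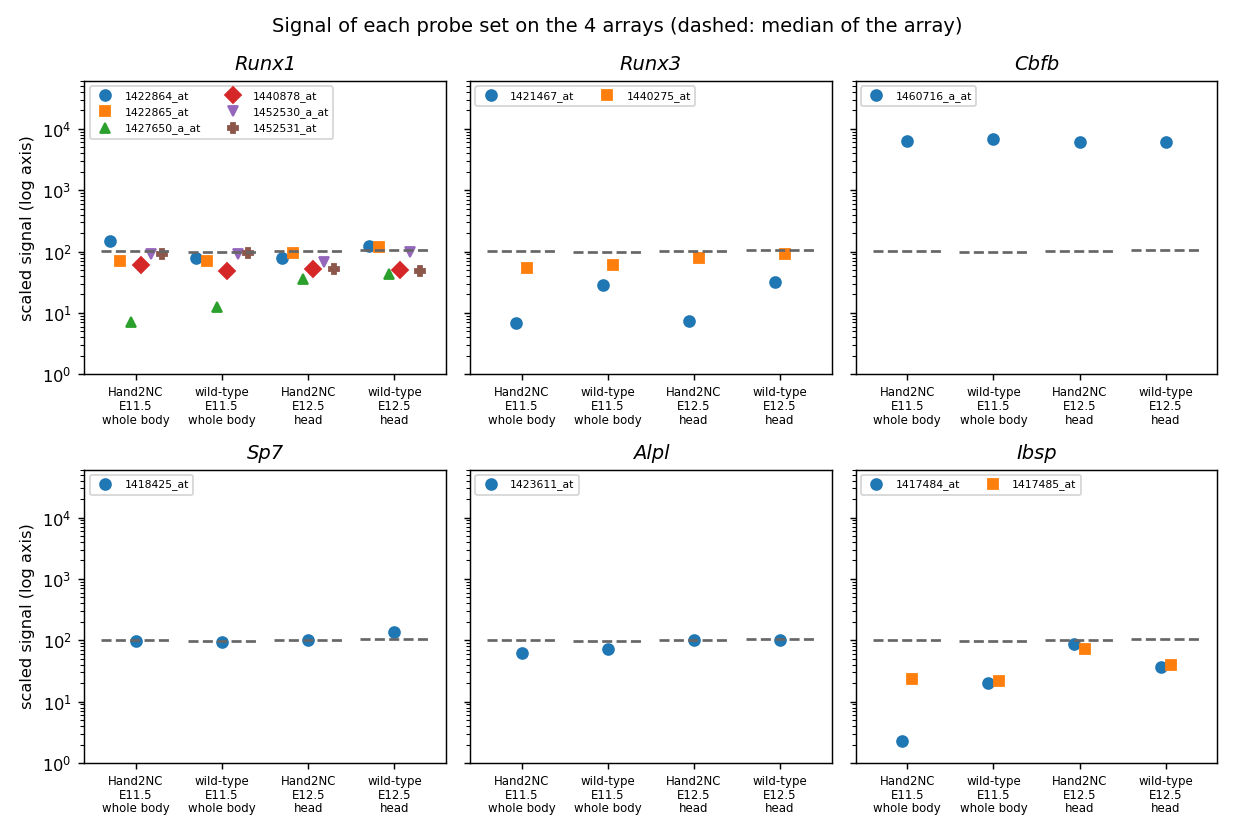
Scaled signal of each probe set (log axis) on the 4 arrays, 1 panel per gene and 1 symbol per probe set, with the median of each array dashed. *Cbfb* lies between 5987 and 6935, and the other 12 probe sets lie at or below 146.

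None of the Runx and osteoblast probe sets was counted as changed between Hand2NC and wild-type at either stage, and those that were 2-fold apart were dim ones of *Runx3* and *Ibsp*. At E11.5, 2 of the 13 probe sets lay above the filter and 0 were counted, where 0.787% of all 23384 probe sets above the filter were. At E12.5, 4 lay above it and 0 were counted, against 0.907% of 23362. At a 1.5-fold cutoff 1 was counted at E11.5, beside 4.74% of all, and 1 at E12.5, beside 4.85%. A probe set near the median passes the filter only through its brighter array, so those that passed were not a neutral sample of the 13. Without the filter 2 of the 13 were at least 2-fold apart at E11.5, beside 16.8% of all probe sets, and 2 at E12.5, beside 17.1%. By more than the local spread, 1 was higher and 3 were lower in Hand2NC at E11.5, and 2 were higher and 4 lower at E12.5. Over all probe sets 32.8% differed by that much at each stage. The median log2 ratio of the 13 was -0.06 at E11.5 and -0.20 at E12.5, against -0.01 for each stage over all probe sets.

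*Runx1* was read by 6 probe sets, of which 1 differed beyond its local spread at E11.5 and 2 at E12.5, in opposite directions at the 2 stages. Its brightest probe set, 1422864_at, had a signal of 146 in Hand2NC and 79.4 in wild-type embryos at E11.5, a log2 ratio of 0.88 at a spread of 0.38. In E12.5 heads it had 77.3 in Hand2NC and 122 in wild-type, a log2 ratio of -0.66 at a spread of 0.39. The Hand2NC signal was thus the higher one in whole embryos and the lower one in heads. With signals below the array median raised to it, the ratios were 0.59 and -0.26, the second within the spread. A neighbouring probe set of the same source transcript, 1422865_at, had signals of 71.4 in Hand2NC and 71.4 in wild-type at E11.5, and of 96.6 in Hand2NC and 117 in wild-type at E12.5. At E11.5 it did not show the difference of its neighbour, but both its signals lay below the array medians of 101 and 97.2. At E12.5 its log2 ratio of -0.28 was within the local spread of 0.37.

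The other 4 *Runx1* probe sets lay below the median on all arrays. At E11.5 their log2 ratios ran from -0.82 for 1427650_a_at, at signals of 7.20 in Hand2NC and 12.7 in wild-type, to 0.32 for 1440878_at, and none exceeded its local spread. At E12.5 1452530_a_at had 67.4 in Hand2NC and 100.03 in wild-type, a log2 ratio of -0.57 at a spread of 0.42, whereas 1452531_at, of the same source transcript, had 52.0 in Hand2NC and 47.5 in wild-type. Over all 6 probe sets, the median log2 ratio was -0.01 at E11.5, with 2 higher and 4 lower in Hand2NC, and -0.27 at E12.5, again with 2 higher and 4 lower. Judged over all its probe sets, *Runx1* showed no shared rise at E11.5, but only the brightest lay above the filter there. The others had signals below the array medians and say little either way. Genes of blood cells, the lineage for which *Runx1* is best known, had a median log2 ratio of 0.01 at E11.5 and 0.05 at E12.5. Of those above the filter 0 of 14 and 0 of 12 passed the cutoff, beside 0.446% and 0.398% of all genes. By more than the local spread, 2 were higher and 3 lower in Hand2NC at E11.5, and 2 higher and 3 lower at E12.5.

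*Runx3* had lower signals in Hand2NC by both probe sets at both stages, all below the array medians. The dimmer one, 1421467_at, had 6.76 in Hand2NC and 28.8 in wild-type at E11.5. At E12.5 it had 7.29 in Hand2NC and 31.5 in wild-type. The log2 ratios were -2.09 and -2.11 at local spreads of 1.85 and 1.58. All 4 signals were far below the array medians, and each ratio was little larger than the spread at such signals. The brighter one, 1440275_at, had 53.3 in Hand2NC and 60.8 in wild-type at E11.5, and 78.9 in Hand2NC and 90.9 in wild-type at E12.5. Its log2 ratios of -0.19 and -0.20 were within spreads of 0.52 and 0.40, so the size of the difference was not shared by the 2 probe sets.

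*Runx1* and *Runx3* are each transcribed from a distal and a proximal start, and the bases before 3 of these starts are shown. No probe set was mapped to either start, and a part of start use in the probe-set differences was not tested. The sequences are from RefSeq (GRCm38.p6), 250 bases up to the base before the start, 5′ to 3′ on the strand of the gene. Capitals mark the RUNX core TGTGGT on either strand (ACCACA on the reverse).
Runx1 distal, chr16:92826075-92826324, minus strand: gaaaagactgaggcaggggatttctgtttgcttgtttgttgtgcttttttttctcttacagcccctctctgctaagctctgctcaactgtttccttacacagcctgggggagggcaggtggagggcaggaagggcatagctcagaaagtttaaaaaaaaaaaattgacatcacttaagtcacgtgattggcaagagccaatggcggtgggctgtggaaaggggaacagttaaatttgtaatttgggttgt
Runx1 proximal, chr16:92697330-92697579, minus strand: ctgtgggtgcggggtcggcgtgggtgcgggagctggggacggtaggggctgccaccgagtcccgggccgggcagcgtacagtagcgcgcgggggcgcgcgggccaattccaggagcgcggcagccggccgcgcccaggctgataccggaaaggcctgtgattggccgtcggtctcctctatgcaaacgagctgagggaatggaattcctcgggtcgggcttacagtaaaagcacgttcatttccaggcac
Runx3 distal, chr4:135120395-135120644, plus strand: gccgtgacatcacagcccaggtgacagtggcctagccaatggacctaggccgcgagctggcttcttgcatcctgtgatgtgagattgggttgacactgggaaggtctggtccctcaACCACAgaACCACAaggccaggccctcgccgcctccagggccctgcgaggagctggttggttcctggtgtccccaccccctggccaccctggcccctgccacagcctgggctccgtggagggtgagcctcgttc
The distal *Runx3* window held ACCACA at 2 positions, with first bases at -134 and -126 from the start. Neither *Runx1* window held it, nor did the proximal *Runx3* window, which is not printed. Of 8 such windows of 5 measured genes (*Sp7* was not in the table), 1 held the core, and 14% of all 32851 windows did. The RUNX variant TGCGGT and the E-box CATCTG, on both strands, were in 0 of the 8, beside 5.1% and 14.4% of all windows. A match describes letters in the window and is no evidence of binding.

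*Cbfb*, the partner of all Runx factors, was bright and nearly equal on the arrays. Its signal was 6325 in Hand2NC and 6935 in wild-type at E11.5, and 5987 in Hand2NC and 6011 in wild-type heads at E12.5. The log2 ratio of -0.13 at E11.5 was just beyond the local spread of 0.11, and that of -0.01 at E12.5 was within 0.09. At this signal the spread was the smallest among the 13 probe sets.

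None of the osteoblast genes was counted as changed in E12.5 heads, and their ratios had no common direction. *Sp7* had a signal of 100.4 in Hand2NC and 137 in wild-type heads, a log2 ratio of -0.45 at a local spread of 0.38. At E11.5 it had 96.0 in Hand2NC and 94.2 in wild-type, so the signals were alike in whole embryos and differed in heads by little more than the spread. *Alpl* had 102 in Hand2NC and 101 in wild-type heads, a log2 ratio of 0.01, and 62.0 in Hand2NC and 72.5 in wild-type at E11.5, a ratio of -0.23 at a spread of 0.48. The enzyme's only probe set thus had nearly equal signals in the heads, but on every array its signal lay below the median. Such signals limit what can be seen of a difference. These are totals over the head and say nothing of where in the jaw a transcript lay.

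*Ibsp*, which encodes a sialoprotein of mineralising matrix, had higher signals in Hand2NC heads by both probe sets. The first, 1417484_at, had 85.5 in Hand2NC and 36.7 in wild-type heads, a log2 ratio of 1.22 at a local spread of 0.51. The second, 1417485_at, had 72.5 in Hand2NC and 39.1 in wild-type heads, a ratio of 0.89 at a spread of 0.55. All of these signals lay below the array medians of 102 and 106, so neither probe set was counted, and with signals below the median raised to it both ratios became that of the medians, -0.057. At E11.5 the first had 2.30 in Hand2NC and 19.9 in wild-type, and the second 23.8 in Hand2NC and 21.6 in wild-type. The probe sets derive from the same source sequence and are not independent readings. At E11.5 they went in opposite directions, by -3.12 at a spread of 2.55 and by 0.13 at a spread of 1.12. *Ibsp* had the highest E12.5 ratios of the 13 probe sets, and the bases before its start are therefore shown from the same RefSeq table.
Ibsp, chr5:104299037-104299286, plus strand: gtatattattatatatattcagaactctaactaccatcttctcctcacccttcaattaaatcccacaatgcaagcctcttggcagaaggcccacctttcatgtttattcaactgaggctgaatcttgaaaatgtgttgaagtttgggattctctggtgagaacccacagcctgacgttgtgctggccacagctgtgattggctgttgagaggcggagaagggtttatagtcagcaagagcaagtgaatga
The *Ibsp* window held none of the 3 motifs searched.

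**Figure D2:**
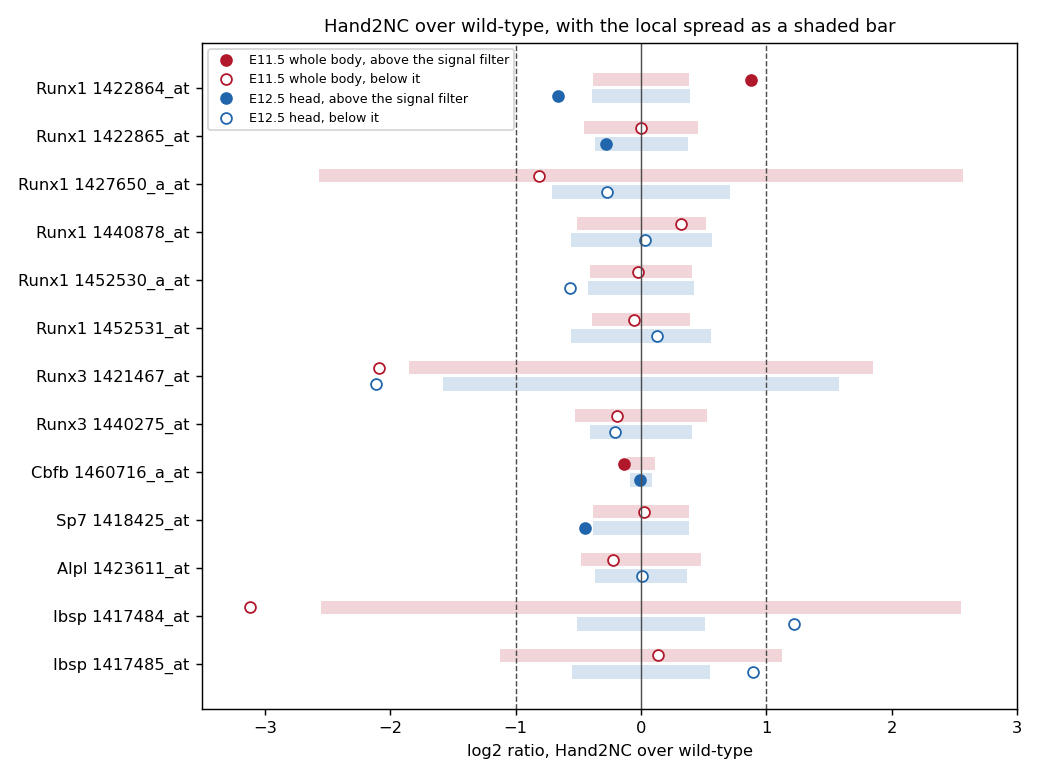
Log2 ratio of Hand2NC to wild-type for the 13 probe sets at E11.5 (red) and E12.5 (blue), filled where the probe set lay above the signal filter. Shaded bars span the local spread on either side of 0, and dashed lines are the 2-fold cutoff. No filled point passes the cutoff, and *Runx1* 1422864_at lies at 0.88 and -0.66.

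Between E12.5 heads and E11.5 whole embryos, none of the 13 probe sets was counted either. Stage and tissue change together here and cannot be told apart. In Hand2NC 2 of the 13 lay above the filter and 0 passed the cutoff, against 4.91% of 23700 probe sets. In wild-type 4 lay above it and 0 passed, against 7.12% of 23791. At 1.5-fold 1 was counted in Hand2NC, beside 16.4% of all, and 2 in wild-type, beside 20.3%. Without the filter 3 probe sets in Hand2NC and 2 in wild-type were at least 2-fold apart, beside 19.9% and 21.6% of all. In Hand2NC 4 were higher and 2 lower in heads by more than the local spread, and in wild-type 5 were higher and 1 lower. The shares over all probe sets were 32.8% and 33.5%. The median log2 ratio of the 13 was 0.11 in Hand2NC and 0.54 in wild-type, against 0.02 over all probe sets in each genotype.

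*Ibsp* had higher signals in E12.5 heads than in E11.5 embryos by both probe sets and in both genotypes. In Hand2NC the log2 ratios were 5.22 and 1.61 at local spreads of 1.65 and 0.66. In wild-type they were 0.88 and 0.85 at spreads of 0.95 and 0.84, about as large as the spread. All 8 signals lay below the array medians, and raising them to the median left ratios of 0.0057 in Hand2NC and 0.12 in wild-type, those of the medians themselves. The ratio of 5.22 rests on the signal of 2.30 in the E11.5 Hand2NC array, the lowest signal of any of these probe sets. *Alpl* had higher signals in heads as well, by 0.71 in Hand2NC at a spread of 0.60 and by 0.48 in wild-type at a spread of 0.53. *Sp7* had log2 ratios of 0.06 in Hand2NC and 0.54 in wild-type at spreads of 0.56 and 0.56. *Runx3* 1440275_at had 0.57 in Hand2NC and 0.58 in wild-type at spreads of 0.61 and 0.58, values that lay at the edge of the spread. *Cbfb* had -0.08 in Hand2NC and -0.21 in wild-type, both within it.

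The 6 probe sets of *Runx1* did not move together between the stages. The dimmest, 1427650_a_at, had log2 ratios of 2.32 in Hand2NC and 1.77 in wild-type, and 1452531_at had -0.82 in Hand2NC and -1.004 in wild-type, so that these opposed each other beyond the spread in both genotypes. The brightest had -0.92 in Hand2NC and 0.62 in wild-type. Over the 6, the median was -0.32 in Hand2NC and 0.37 in wild-type. Blood cell genes had a list median of -0.70 in Hand2NC and -0.68 in wild-type. Of 14 above the filter 5 in Hand2NC and 6 in wild-type were at least 2-fold lower and 0 were higher. Over all genes above the filter 5.11% and 7.07% differed by that much either way. Lower were the erythroid factor gene *Klf1* (-2.84 and -3.40) and the platelet chemokine gene *Pf4* (-2.10 and -1.99). So were *Gata1*, *Gfi1b* and *Itga2b* in both genotypes and *Myb* in wild-type. By more than the local spread, 9 were lower and 1 was higher in Hand2NC, and 8 were lower and 1 higher in wild-type. *Kit* had 0.42 and 0.29, *Gata2* 0.13 and 0.53, *Csf1r* 0.27 and 0.12, and *Cd34* 0.04 and 0.22. The part of blood cells in the *Runx1* signals was not tested.

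**Figure D3:**
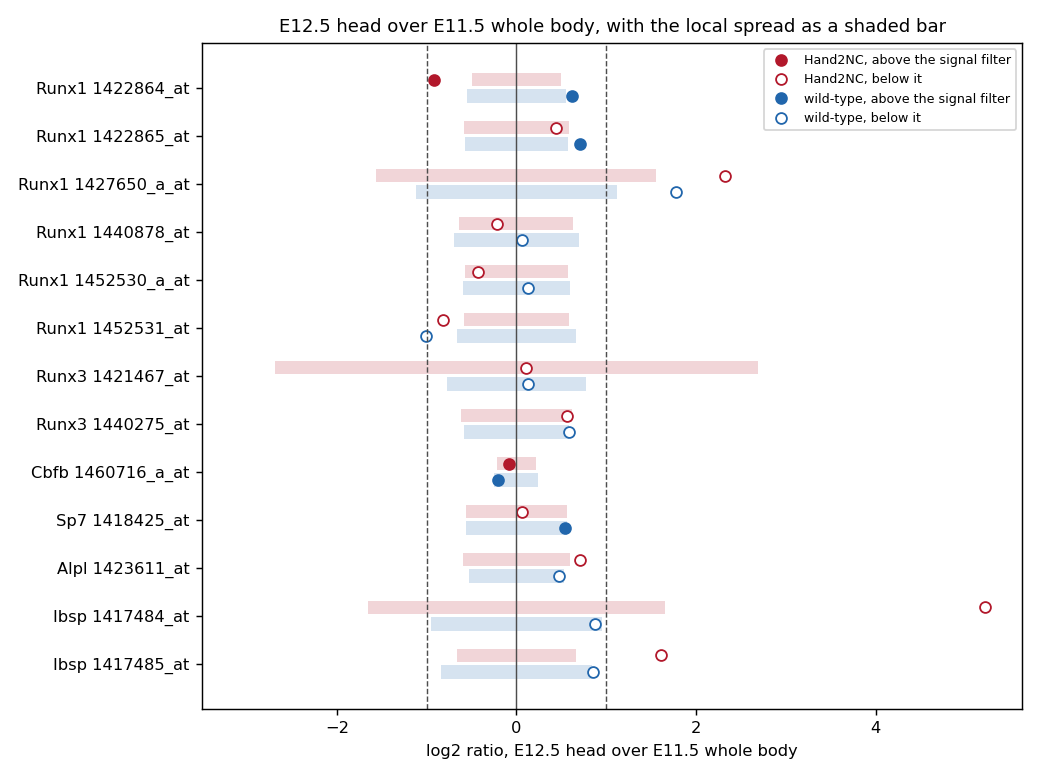
Log2 ratio of E12.5 head to E11.5 whole body for the 13 probe sets in Hand2NC (red) and wild-type (blue), drawn as in the plot of genotype ratios. Both *Ibsp* probe sets lie to the right in both genotypes, at 5.22 and 1.61 in Hand2NC, and the *Runx1* probe sets lie on both sides of 0.

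A fit over all 4 arrays with genotype and stage as additive terms (limma, Benjamini-Hochberg adjustment) called none of the 4 probe sets it held, those at or above the median on any array. It has 1 residual degree of freedom per probe set, which holds array error and any difference between the stages in the genotype effect. For E12.5 heads against E11.5 embryos, 0 of the 4 passed an adjusted p of 0.05 and 0 passed an unadjusted one, where 29.7% of 24521 probe sets were called. The estimate was -0.14 ± 0.09 (SE) for *Cbfb* and 0.30 ± 0.33 for *Sp7*, with limma adjusted p of 0.21 and 0.53. For *Runx1* it was -0.15 ± 0.34 and 0.57 ± 0.39 for 1422864_at and 1422865_at. For Hand2NC against wild-type over both stages, 0 of the 4 passed, 0 at an unadjusted p of 0.05, and 0.62% of all were called. The estimates ran from -0.21 ± 0.33 for *Sp7* to 0.11 ± 0.34 for *Runx1* 1422864_at. In such a fit a difference that opposes itself between the stages, as that of *Runx1* 1422864_at, cancels.

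Of the genes that act with the Runx factors or in the same tissue, none above the signal filter passed the 2-fold cutoff between genotypes. Below the filter some did, such as the vitamin D receptor gene *Vdr* (2.27 at a local spread of 2.07) and the matrix protein gene *Mepe* (-2.58 at 1.45) at E11.5. Of 16 measured Runx cofactor genes, all above the filter, 0 passed it at E11.5 or E12.5. For genes taken by their brightest probe set, 0.446% passed at E11.5 and 0.398% at E12.5. Medians of the list were 0.09 and -0.05, and those over all such genes -0.01 and 0.00. Beyond the local spread, 6 cofactor genes were higher and 1 was lower in Hand2NC at E11.5, and 2 were higher and 7 lower at E12.5. Over all such genes above the filter, 33.3% and 32.5% differed by that much either way. The Groucho corepressor gene *Tle3* had log2 ratios of 0.11 and -0.31. Of osteoblast regulators 0 of 15 passed at E11.5 and 0 of 17 at E12.5, with list medians of -0.04 and -0.02. Among them *Dlx5*, a homeobox gene active in the lower jaw arch, had 0.28 and 0.17, and the bHLH factor gene *Twist1* had 0.13 and 0.34. *Dlx6*, a neighbour of *Dlx5* in the genome, had -0.27 at E11.5, below the filter and within its local spread of 0.46. At E12.5 it had -0.46 at a spread of 0.25, and *Msx1*, a homeobox gene of jaw mesenchyme, had -0.24. By more than the local spread, 4 of these regulators were higher and 4 lower at E11.5, and 3 higher and 6 lower at E12.5. Bone matrix genes passed in 0 of 6 and 0 of 6, with medians of -0.09 and -0.06. *Col1a1*, the main collagen gene of bone, had signals of 1424 in Hand2NC and 1428 in wild-type at E11.5, and of 1768 in Hand2NC and 1851 in wild-type heads. Cartilage genes passed in 0 of 9 at E11.5 and 0 of 9 at E12.5, and sensory neuron genes in 0 of 4 and 0 of 4.

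Between the stages few of these genes passed the cutoff. *Dlx6* was higher in E12.5 heads, with signals of 204 in Hand2NC heads against 75.3 in Hand2NC embryos, and of 280 in wild-type heads against 90.6 in wild-type embryos. It was 1 of 17 osteoblast regulators past the cutoff in each genotype, where 5.11% of genes in Hand2NC and 7.07% in wild-type passed. Of the cofactors 0 of 16 passed in Hand2NC and 1 in wild-type, *Runx1t1*, with a log2 ratio of 1.24. Of cartilage genes 0 of 9 passed in Hand2NC and 1 of 9 in wild-type, *Matn1*, with 1.33. Of bone matrix genes 0 of 7 in Hand2NC and 0 of 6 in wild-type passed. Of sensory neuron genes 0 of 4 passed in Hand2NC and 1 of 4 in wild-type. That 1 was *Ntrk3*, a neurotrophin receptor gene of the proprioceptive neurons in which *Runx3* acts. It had log2 ratios of 0.78 in Hand2NC and 1.09 in wild-type, and of 0.13 at E11.5 and -0.18 at E12.5 between genotypes. Between stages, in Hand2NC and wild-type, *Ntrk2* had 0.30 and 0.48, *Pou4f1* 0.10 and 0.43, and *Isl1* 0.16 and -0.05.

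**Figure D4:**
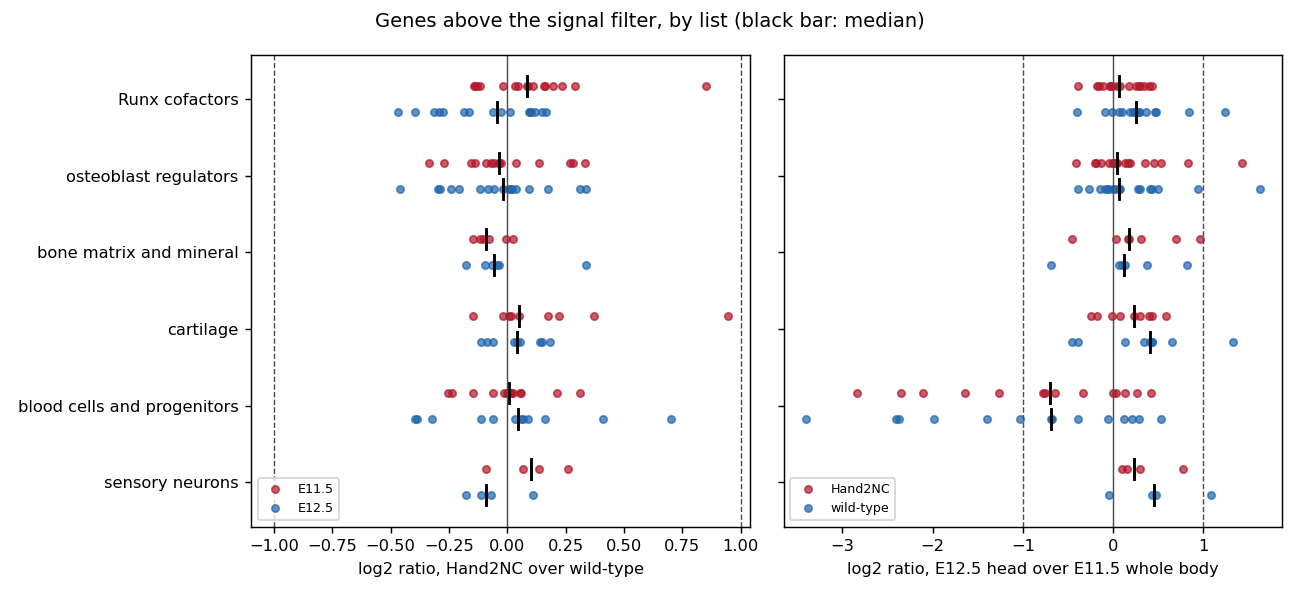
Log2 ratios of context genes above the signal filter, 1 point per gene by its brightest probe set, with the list median as a black bar. On the left Hand2NC is set over wild-type at E11.5 (red) and E12.5 (blue), where 0 points pass the dashed 2-fold lines, and on the right E12.5 heads over E11.5 embryos in Hand2NC (red) and wild-type (blue), where blood genes lie furthest to the left.

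The genes closest in pattern to *Runx1* and *Sp7* were sought over the 4 arrays, by the Euclidean distance between log2 signals after the mean of each gene was subtracted. Among 10962 genes above the median on all arrays, *Spry4* (0.21), *Mnd1* (0.31) and *Htr1b* (0.35) lay nearest to the brightest *Runx1* probe set. *Plcl2* (0.02), *Mfsd3* (0.04) and *Rnf41* (0.05) lay nearest to *Sp7*. With 4 points per gene, such closeness is a description only.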

How the data were processed

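Pooled total RNA of 4 conditions was hybridised to 1 Affymetrix array each. The deposited intensity values are linear MAS5 signals made by the authors, 45101 probe sets (64 are controls) per array, and hold no detection calls; the MAS5 version is not given in the sources used here. Arrays were scaled to a 2% trimmed mean of 500 without controls, and log2 was taken. Names came from the platform annotation, checked through gene identifiers in a RefSeq table (GRCm38.p6): 34945 probe sets have 1 symbol, 932 several and 9160 none. The number of arrays limits the precision. The limma fit used a variance trend on signal; its prior degrees of freedom were infinite, so the spread came from that trend alone.

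The genes and lists were chosen with earlier results of these data known. Named genes were all members, *Hand2*, list members past the cutoff (at most 4 for a list and comparison), and the 3 nearest in pattern to *Runx1* and *Sp7*; other examples were chosen after their values were seen. The steps were tested on simulated data. Alternatives changed the scaling, filter, cutoff, low signals, probe-set summary and fit. Tools were R 4.3.3 with limma 3.58.1, and Python 3.11.15 with pandas 2.3.3, numpy 2.4.6, matplotlib 3.10.9 and scipy 1.17.1.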

Additional observations from a re-analysis of the deposited data

Results flagged for a closer look

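*Runx1* 1422864_at had opposite genotype ratios at the 2 stages, each beyond its local spread: 0.88 at E11.5 and -0.66 at E12.5 on the log2 scale. With signals below the array median raised to it, the second was -0.26, within its spread of 0.39. The difference between the stages was not tested, since each rests on 1 array per genotype. None of the other 5 *Runx1* probe sets lay above the signal filter at both stages.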

How the results depend on the processing

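The counts of 0 probe sets past 2-fold stayed 0 with unscaled values, median centring, quantile normalization and genes taken by the mean over their probe sets. They were also 0 with low signals raised, the 2 stricter filters, the probe-set exclusion and the brightest-probe-set summary. These last settings only drop probe sets or shrink ratios, so they could not have raised a count of 0 and test nothing. Without a filter the counts were 2 at E11.5 and 2 at E12.5 between genotypes, and 3 in Hand2NC and 2 in wild-type between stages. At 1.5-fold they were 1 at E11.5 and 1 at E12.5 between genotypes, and 1 in Hand2NC and 2 in wild-type between stages, all of them *Runx1* probe sets. The limma stage fit without a filter called 1 of 13, *Ibsp* 1417484_at (limma adjusted p = 0.0367), where 12.9% of all were called. Dropping the genotype term and leaving out each array in turn gave 0 each time; the lone array was then assumed to vary like the other stage. Without the variance trend, limma called 1553 probe sets in all between stages and 0 between genotypes, against 7275 and 152 with it, and 0 of the 4 Runx and osteoblast probe sets in both. The genotype fit called 48 with arrays centred on medians, 54 after quantile normalization, 91 with low signals raised and 11 without a filter. Raising signals below the array median to it turned the median ratios of *Runx3* and *Ibsp* at E11.5 to 0.060 each, and that of *Ibsp* at E12.5 to -0.057; both values are then the ratio of the array medians. It also left *Runx3* at E12.5 at -0.057, *Ibsp* and *Alpl* between stages in Hand2NC at 0.0057, and the brightest *Runx1* probe set at E12.5 at -0.26. No paired analysis was possible because each condition has 1 array, so no replicates can be matched; the genotype fit has stage as a term, so it compares the genotypes within each stage. Signals near or below the array median limit what can be seen for all genes but *Cbfb*.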

Other observations

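Several context genes, *Tle1*, *Dlx5* and *Fgfr1* among them, had their lowest signal on the E11.5 wild-type array. So had *Runx1t1* and *Matn1*. *Runx1t1*, read by a probe set that may bind several transcripts, had 1831 in Hand2NC and 1014 in wild-type embryos at E11.5, and 1819 in Hand2NC and 2397 in wild-type heads. *Matn1*, which encodes a cartilage matrix protein, had 108 in Hand2NC and 56.2 in wild-type embryos, and 146 in Hand2NC and 141 in wild-type heads. The log2 ratios of *Runx1t1* and *Matn1* at E11.5, 0.85 and 0.94, lay beyond local spreads of 0.13 and 0.45. Of all genes above the filter, taken by their brightest probe set, 33.3% lay beyond the local spread at E11.5.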
